A study of Mus musculus with 34 samples.

Results

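The inward rectifier potassium channel genes Kcnj6, Kcnj15, Kcnj3 and Kcnj9 and the kainate receptor genes Grik1, Grik2, Grik3 and Grik5 were followed through 34 cortex libraries of 8 groups of mice. The 8 genes were chosen by symbol out of 55385 genes listed, as 3 genes of the duplicated chromosome 16 segment (Kcnj6, Kcnj15 and Grik1) and 5 family partners on other chromosomes. All mice were 6 months old. Wild-type mice were C57BL/6J. Dp16 mice carry a duplication of a stretch of mouse chromosome 16 whose genes correspond to genes of human chromosome 21, and serve as a model of Down syndrome. In 5xFAD mice, Thy1 promoter sequences drive neuronal expression of human transgenes that hold mutations of familial Alzheimer's disease. 5xFAD-Dp16 mice carry both lesions. Sham mice received 0.5% methylcellulose by daily oral gavage for a month, and tofacitinib mice received 15 mg/kg of that JAK1/3 inhibitor in the same way. Sham and tofacitinib mice numbered 5 and 5 for wild-type, 3 and 5 for Dp16, 4 and 5 for 5xFAD, and 3 and 4 for 5xFAD-Dp16, with 16 females and 18 males in all. The labels name 1 mouse per library, so the spread below is between mice. Poly-A RNA gave between 16029841 and 21388650 counted reads per library. Levels are CPM, counts scaled to a common library total after TMM normalisation, or RPKM, which is not TMM-scaled and also divides by gene length.

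Girk channels are potassium channels that open when G protein beta-gamma subunits are released by receptors of the inhibitory Gi and Go class, such as GABA-B, muscarinic, adenosine, opioid and dopamine D2 receptors. They hyperpolarise neurons. Brain Girk channels are tetramers in which Kcnj6 (Girk2), Kcnj3 (Girk1) and Kcnj9 (Girk3) combine, and Kcnj3 needs a partner subunit to reach the cell surface. Kcnj15 (Kir4.2) belongs to the same superfamily but is not opened by G proteins, and is known mainly from kidney and other epithelia. Kainate receptors are glutamate-gated cation channels. Grik1 (GluK1), Grik2 (GluK2) and Grik3 (GluK3) can form channels alone, whereas Grik5 (GluK5) is a high-affinity auxiliary subunit that needs one of them. In cortex Grik1 is best known from GABAergic interneurons.

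The pore sequences show how alike the family members are. The stretches below come from the coding sequence of GENCODE M21 transcripts on GRCm38, and the capitals mark the codons for Gly-Tyr-Gly, the potassium selectivity filter of these 4 channels.
Kcnj6: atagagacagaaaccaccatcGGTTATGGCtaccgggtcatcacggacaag
Kcnj15: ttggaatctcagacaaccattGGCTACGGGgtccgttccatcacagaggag
Kcnj3: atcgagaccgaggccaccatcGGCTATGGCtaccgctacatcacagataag
Kcnj9: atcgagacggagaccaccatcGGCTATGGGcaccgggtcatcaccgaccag
Over these 51 bases Kcnj9 differed from Kcnj6 at 8 positions, Kcnj3 at 10 and Kcnj15 at 20, so Kcnj15 is the least like the Girk subunits. The Kcnj6 stretch lies in exon 3 of 4 at chr16:94832756-94832806 (minus strand) and the Kcnj15 stretch in exon 4 of 4 at chr16:95295965-95296015 (plus strand).

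In the kainate receptors the capitals mark the codon at the Q/R position of the pore loop, which RNA editing is known to recode in Grik1 and Grik2. The genome encodes glutamine there in all 4 genes.
Grik1: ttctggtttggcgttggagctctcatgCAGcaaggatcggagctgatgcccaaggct
Grik2: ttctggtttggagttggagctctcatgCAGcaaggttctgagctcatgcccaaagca
Grik3: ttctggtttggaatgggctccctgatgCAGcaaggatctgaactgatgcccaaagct
Grik5: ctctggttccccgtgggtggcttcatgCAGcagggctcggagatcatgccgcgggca
Of these 57 bases Grik2 differed from Grik1 at 6, Grik3 at 10 and Grik5 at 17. In Grik1 the stretch spans the end of exon 12 and the start of exon 13 of 17, at chr16:87940538-87940571 and chr16:87936093-87936115 (minus strand). Over the whole transcripts, the longest run of identical bases was 17 between any pair of the 4 Kcnj genes. Among the Grik genes it was 46, between Grik2 and Grik3, and 35 between Grik1 and Grik2. These runs are shorter than a sequencing read. The files hold counts per gene and not bases, so editing itself was not measured.

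The 3 duplicated genes lie within 75540514 to 97962622 of chromosome 16 (GRCm38), the stretch taken as the segment. Kcnj6 (ENSMUSG00000043301.16, minus strand) spans 94748636 to 94997701 and Kcnj15 (ENSMUSG00000062609.14, plus strand) 95257558 to 95300260. Grik1 (ENSMUSG00000022935.16, minus strand) spans 87895900 to 88290265. Kcnj3 lies on chromosome 2, Kcnj9 on 1, Grik2 on 10, Grik3 on 4 and Grik5 on 7. Genes annotated over the members had at most 11 counts in any library. Of the 8 members, 7 had enough counts to be tested. Kcnj15 did not.

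Libraries that stood apart touch several results. The library of 5xFAD tofacitinib 2 had a summed level of 12 excitatory neuron markers of 3526 CPM, the lowest of 34. It also had the highest summed oligodendrocyte (14244 CPM), choroid plexus (2053 CPM) and thalamus (440 CPM) markers. Its Kcnj3, Kcnj9, Grik3 and Grik5 were the lowest of all libraries in CPM. Next lowest in excitatory markers were wild-type tofacitinib 1 (6898 CPM) and wild-type sham 2 (7118 CPM). Wild-type sham 2 and 5xFAD tofacitinib 2 were left out together as an alternative, and are meant below by both libraries that stood apart. Wild-type tofacitinib 1, lower in these markers than wild-type sham 2, was left out of the tests only singly. The 12 striatal markers summed to between 418 and 2107 CPM in duplication carriers (median 868) and between 585 and 2915 in non-carriers (median 1501), so the 2 ranges overlapped but their middles differed. In bulk tissue, fewer cells of a type and less RNA per cell cannot be told apart.

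Per unit of gene length the members spanned a wide range of levels in this cortex. Grik5 averaged 55.3 RPKM over all 34 libraries, Kcnj9 35.6 and Kcnj3 24.3. Grik3 followed at 9.68 RPKM, then Grik2 at 3.23, Kcnj6 at 3.19 and Grik1 at 2.99, which lay within a library SD of each other. Kcnj15 averaged 0.0202 RPKM. Among the members followed here, the 2 duplicated genes that could be tested were thus the least abundant Girk and kainate receptor subunits or near it.

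Kcnj6 was higher in mice with the duplication, at 27.6 ± 5.28 CPM in 15 carriers against 15.6 ± 3.74 in 19 non-carriers (SD). The wild-type sham values were 10.3, 11.8, 17.8, 11.7 and 14.7 CPM, and those under tofacitinib 9.62, 19.4, 17.3, 15.4 and 20.2. In 5xFAD they were 15.1, 21.5, 19.9 and 16.3 CPM in sham and 20.2, 10, 14, 17.5 and 14 under tofacitinib. These 4 groups overlapped one another.

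Dp16 sham mice had 29.3, 22.7 and 18.2 CPM of Kcnj6, and Dp16 tofacitinib mice 26.0, 27.0, 30.6, 21.2 and 26.5. In 5xFAD-Dp16 the values were 28.5, 40.9 and 29.9 CPM in sham and 33.2, 27.6, 24.7 and 28.1 under tofacitinib. In group means the order ran from wild-type sham (13.3 ± 2.97) through 5xFAD tofacitinib (15.1 ± 3.87), wild-type tofacitinib (16.4 ± 4.23), 5xFAD sham (18.2 ± 2.99), Dp16 sham (23.4 ± 5.56), Dp16 tofacitinib (26.3 ± 3.39) and 5xFAD-Dp16 tofacitinib (28.4 ± 3.54) to 5xFAD-Dp16 sham (33.1 ± 6.76). Each step between neighbours in this order was smaller than the larger of their SDs. The step from 5xFAD sham to Dp16 sham is the one that crosses from non-carriers to carriers. The highest library of all was 5xFAD-Dp16 sham 2.

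**Figure D1:**
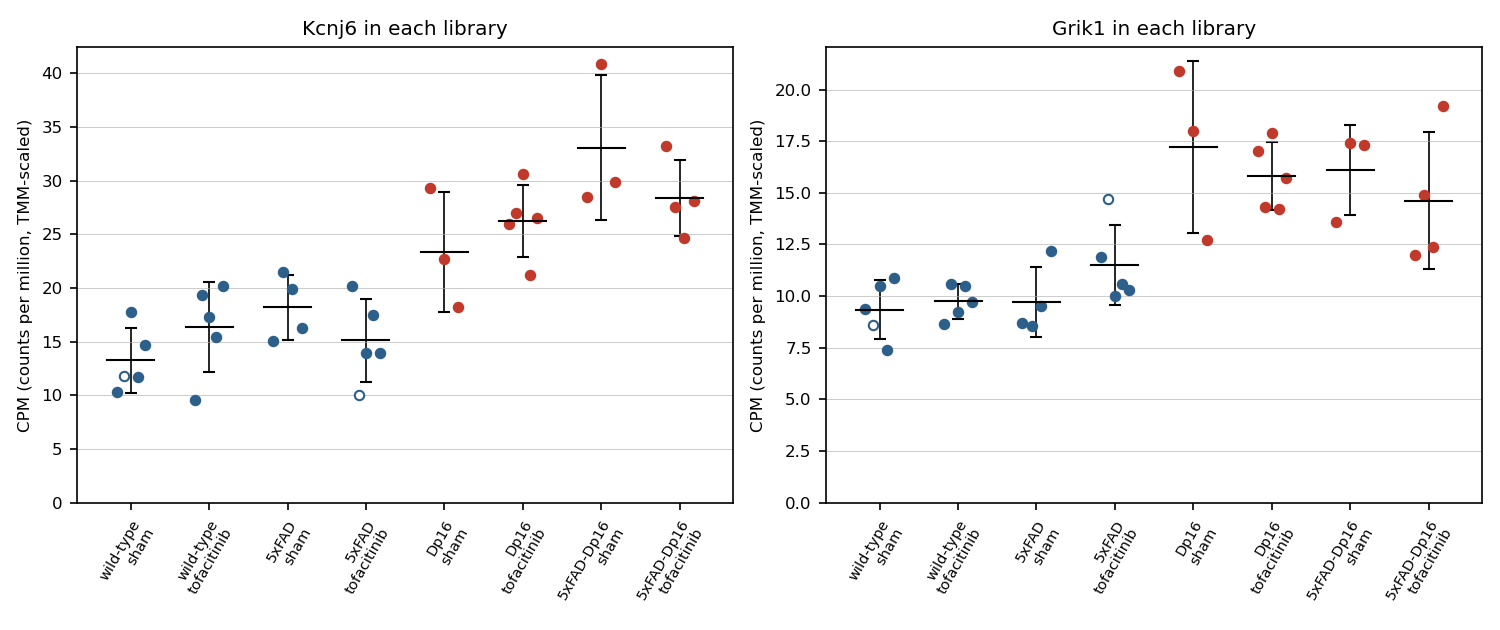
CPM of Kcnj6 (left) and Grik1 (right) in each library by group, with non-carriers in blue and carriers of the duplication in red; black lines are the group mean ± SD, and open points are wild-type sham 2 and 5xFAD tofacitinib 2. Kcnj6 carriers start at 18.2 CPM and Grik1 carriers at 12 CPM, and 1 open Grik1 point, at 14.7 CPM, sits among the carriers.

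Within each of the 4 matched pairs of groups (Dp16 against wild-type and 5xFAD-Dp16 against 5xFAD, in sham and in tofacitinib) every Kcnj6 carrier lay above every non-carrier. Such complete separation was found in 2.77% of tested genes for Dp16 against wild-type sham, 5.32% for 5xFAD-Dp16 against 5xFAD sham, and 0.771% and 1.26% for the same pairs under tofacitinib. The margin was narrow in Dp16 sham, where the lowest carrier had 18.2 CPM and the highest wild-type 17.8. With genotypes pooled, all 9 carriers given tofacitinib were above all 10 non-carriers (21.2 against 20.2 CPM at the edge), a separation found in 0.142% of tested genes and in 19.8% of those of the segment. In pooled sham, 2 of 9 non-carriers, at up to 21.5 CPM, reached the lowest carrier.

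Averaged over the 4 pairs, Kcnj6 was 1.77-fold higher with the duplication (log2 difference 0.82, SE 0.106, 95% interval 1.52 to 2.05-fold, adjusted p = 3.5e-06 by edgeR's quasi-likelihood test with Benjamini-Hochberg adjustment). Of the 7 tested members 2 were called in this comparison, Kcnj6 and Grik1, both higher. Over all 17632 tested genes 2.14% were called, 1.17% as higher, and among the 106 tested genes of the segment 66% were called higher, against 0.776% of the genes outside it. The pair-wise estimates for Kcnj6 were 1.77-fold for Dp16 in sham (adjusted p = 0.152, edgeR), 1.82-fold on the 5xFAD background in sham (adjusted p = 0.206), 1.61-fold under tofacitinib (adjusted p = 0.169) and 1.88-fold on 5xFAD under tofacitinib (adjusted p = 0.0243). Only the last passed the threshold of 0.05, and it was lost when any of 6 libraries was left out (5xFAD tofacitinib 2, 4 or 6, or 5xFAD-Dp16 tofacitinib 1, 2 or 4). In the pair-wise comparisons, which rest on 3 to 5 mice a group, 0.21% of all genes were called for Dp16 in sham, 0.102% on 5xFAD in sham, 0.25% for Dp16 under tofacitinib and 0.238% on 5xFAD under tofacitinib.

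Grik1 was also higher in carriers, at 15.8 ± 2.66 CPM (n = 15) against 10.1 ± 1.63 (n = 19). Wild-type sham mice had 9.38, 8.58, 10.5, 7.38 and 10.9 CPM and wild-type tofacitinib mice 8.66, 10.6, 9.22, 10.5 and 9.73. The 5xFAD values were 8.68, 8.57, 9.5 and 12.2 CPM in sham and 11.9, 14.7, 10, 10.6 and 10.3 under tofacitinib. Non-carrier groups overlapped, and the value of 14.7 belongs to 5xFAD tofacitinib 2, the library low in neuronal markers.

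In Dp16 the Grik1 values were 20.9, 18 and 12.7 CPM in sham and 17.0, 14.3, 17.9, 14.2 and 15.7 under tofacitinib. In 5xFAD-Dp16 they were 13.6, 17.4 and 17.3 CPM in sham and 12, 14.9, 12.4 and 19.2 under tofacitinib. Group means rose from wild-type sham (9.35 ± 1.44) through wild-type tofacitinib (9.74 ± 0.826), 5xFAD sham (9.74 ± 1.71), 5xFAD tofacitinib (11.5 ± 1.9), 5xFAD-Dp16 tofacitinib (14.6 ± 3.34), Dp16 tofacitinib (15.8 ± 1.65) and 5xFAD-Dp16 sham (16.1 ± 2.12) to Dp16 sham (17.2 ± 4.16). No neighbours in this order differed by more than the larger of their SDs. The 4 non-carrier groups filled the lower places and the 4 carrier groups the upper ones, as for Kcnj6. In 3 of the 4 matched pairs, and in pooled sham mice (6 against 9, found in 0.278% of tested genes and 31.1% of those of the segment), every Grik1 carrier was above every non-carrier. In the pair of 5xFAD groups under tofacitinib, 5xFAD tofacitinib 2 was above the lowest carrier, at 12 CPM. Over both treatments together, 15 carriers against 19 non-carriers, neither Kcnj6 nor Grik1 separated completely, as 0.0907% of tested genes did.

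In the fit, the averaged difference for Grik1 was 1.57-fold (log2 0.65, SE 0.0833, 95% interval 1.39 to 1.76-fold, adjusted p = 3.36e-06, edgeR). By pair it was 1.81-fold for Dp16 in sham (adjusted p = 0.012), 1.63-fold on 5xFAD in sham (adjusted p = 0.196), 1.61-fold for Dp16 under tofacitinib (adjusted p = 0.0284) and 1.27-fold on 5xFAD under tofacitinib (adjusted p = 0.548). The call in Dp16 sham was lost without wild-type sham 2 (adjusted p = 0.0516, edgeR), Dp16 sham 1 (0.19) or Dp16 sham 2 (0.0932). The call under tofacitinib was lost when any of 7 libraries was left out (wild-type tofacitinib 1, 2, 3 or 5, or Dp16 tofacitinib 1, 3 or 5). Whether the duplication acted differently on the 5xFAD background or under tofacitinib was tested directly. For Grik1 the difference between backgrounds was 0.841-fold (0.669 to 1.06) and between treatments 0.834-fold (0.662 to 1.05), and for Kcnj6 1.1-fold (0.824 to 1.46) and 0.967-fold (0.725 to 1.29). None of these 4 passed (adjusted p from 0.995 to 1, edgeR), and the intervals allow moderate differences in either direction.

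**Figure D2:**
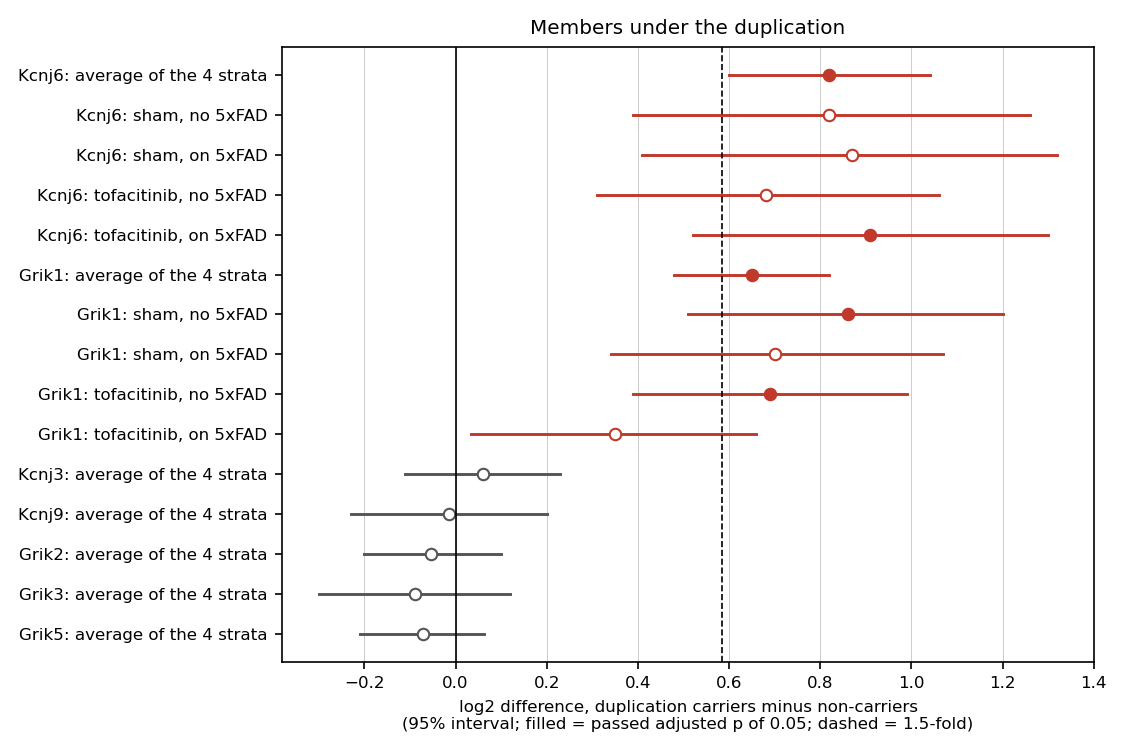
Log2 difference between duplication carriers and non-carriers for the 7 tested members, averaged over 4 matched pairs of groups, and by pair for Kcnj6 and Grik1; bars are 95% intervals, filled points passed an adjusted p of 0.05 and the dashed line is 1.5-fold. The averages for Kcnj6 (0.82) and Grik1 (0.65) lie to the right of 0 with their whole interval, and the intervals of all 5 partners include 0.

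Mice with both lesions, compared with wild-type, showed the same 2 members called in sham. Kcnj6 was 2.5-fold higher (adjusted p = 0.00048, edgeR) and Grik1 1.7-fold (adjusted p = 0.0229), where 0.363% of all genes were called. Without wild-type sham 2 and 5xFAD tofacitinib 2, Kcnj6 was 2.38-fold higher (adjusted p = 0.00161) and Grik1 1.67-fold, no longer called (adjusted p = 0.0582). Under tofacitinib the values were 1.74-fold for Kcnj6 (adjusted p = 0.0633) and 1.5-fold for Grik1 (adjusted p = 0.113), with 0 of 7 members called against 0.306% of all genes. There Kcnj6 passed without 5xFAD tofacitinib 1 (adjusted p = 0.0395, edgeR) or 2 (0.0305). In sham Grik1 was lost without wild-type sham 1, 2 or 4 or 5xFAD-Dp16 sham 2 or 4 (adjusted p from 0.062 to 0.272), and with the summed striatal markers as a covariate (0.414). This comparison shares its groups with those above and is no separate evidence.

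Kcnj15, the third duplicated member, was barely detected. Its counts were 0 in all 5 wild-type sham mice and 0, 0, 3 and 5 in 5xFAD sham, and 2, 3 and 5 in Dp16 sham and 0, 3 and 4 in 5xFAD-Dp16 sham. Under tofacitinib the counts were 10, 0, 0, 2 and 2 in wild-type, 1, 0, 0, 0 and 1 in 5xFAD, 0, 17, 1, 1 and 1 in Dp16, and 4, 0, 5 and 2 in 5xFAD-Dp16. Single libraries, wild-type tofacitinib 1 and Dp16 tofacitinib 2, held the 2 highest counts. Counts were 0 in 3 of 15 carriers and in 12 of 19 non-carriers. Tested without the filter on low counts, the averaged log2 difference was 1.92 (unadjusted p = 0.00424, adjusted p = 0.13, edgeR). It did not pass, and at this depth a difference between carriers and non-carriers was not established.

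The Girk partners that are not duplicated did not pass the test in the averaged comparison. Kcnj3 was at 130 ± 11.6 CPM in carriers and 125 ± 22.3 in non-carriers, a difference of 1.04-fold (95% interval 0.926 to 1.17, adjusted p = 0.82, edgeR). Kcnj9 was at 137 ± 15.2 against 140 ± 31.4 CPM, or 0.99-fold (0.852 to 1.15, adjusted p = 0.974). For both, the interval leaves out a 1.5-fold difference.

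The kainate receptor partners did not pass either. Grik2 was at 33.3 ± 4.43 CPM in carriers and 33.7 ± 5.2 in non-carriers (0.963-fold, 0.869 to 1.07). Grik3, at 84.7 ± 11.2 against 88.8 ± 22 CPM, gave 0.94-fold (0.811 to 1.09). Grik5, at 201 ± 19.9 against 215 ± 36.7 CPM, gave 0.951-fold (0.867 to 1.04). Adjusted p-values lay between 0.694 and 0.816 (edgeR), and carriers and non-carriers overlapped in each of the 4 matched pairs for Kcnj3, Kcnj9, Grik2 and Grik3. For Grik5 they overlapped in 3 of the 4. In the 5xFAD groups in sham every carrier (199, 207 and 224 CPM) lay below every non-carrier (246 to 250), as in 4.63% of tested genes, at 0.873-fold (0.714 to 1.07, adjusted p = 1, edgeR). The library of 5xFAD tofacitinib 2 stood apart in its group, at 62.7 CPM of Kcnj3 where the other 4 mice of the group had 112 to 149, and at 128 CPM of Grik5 where they had 196 to 251.

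**Figure D3:**
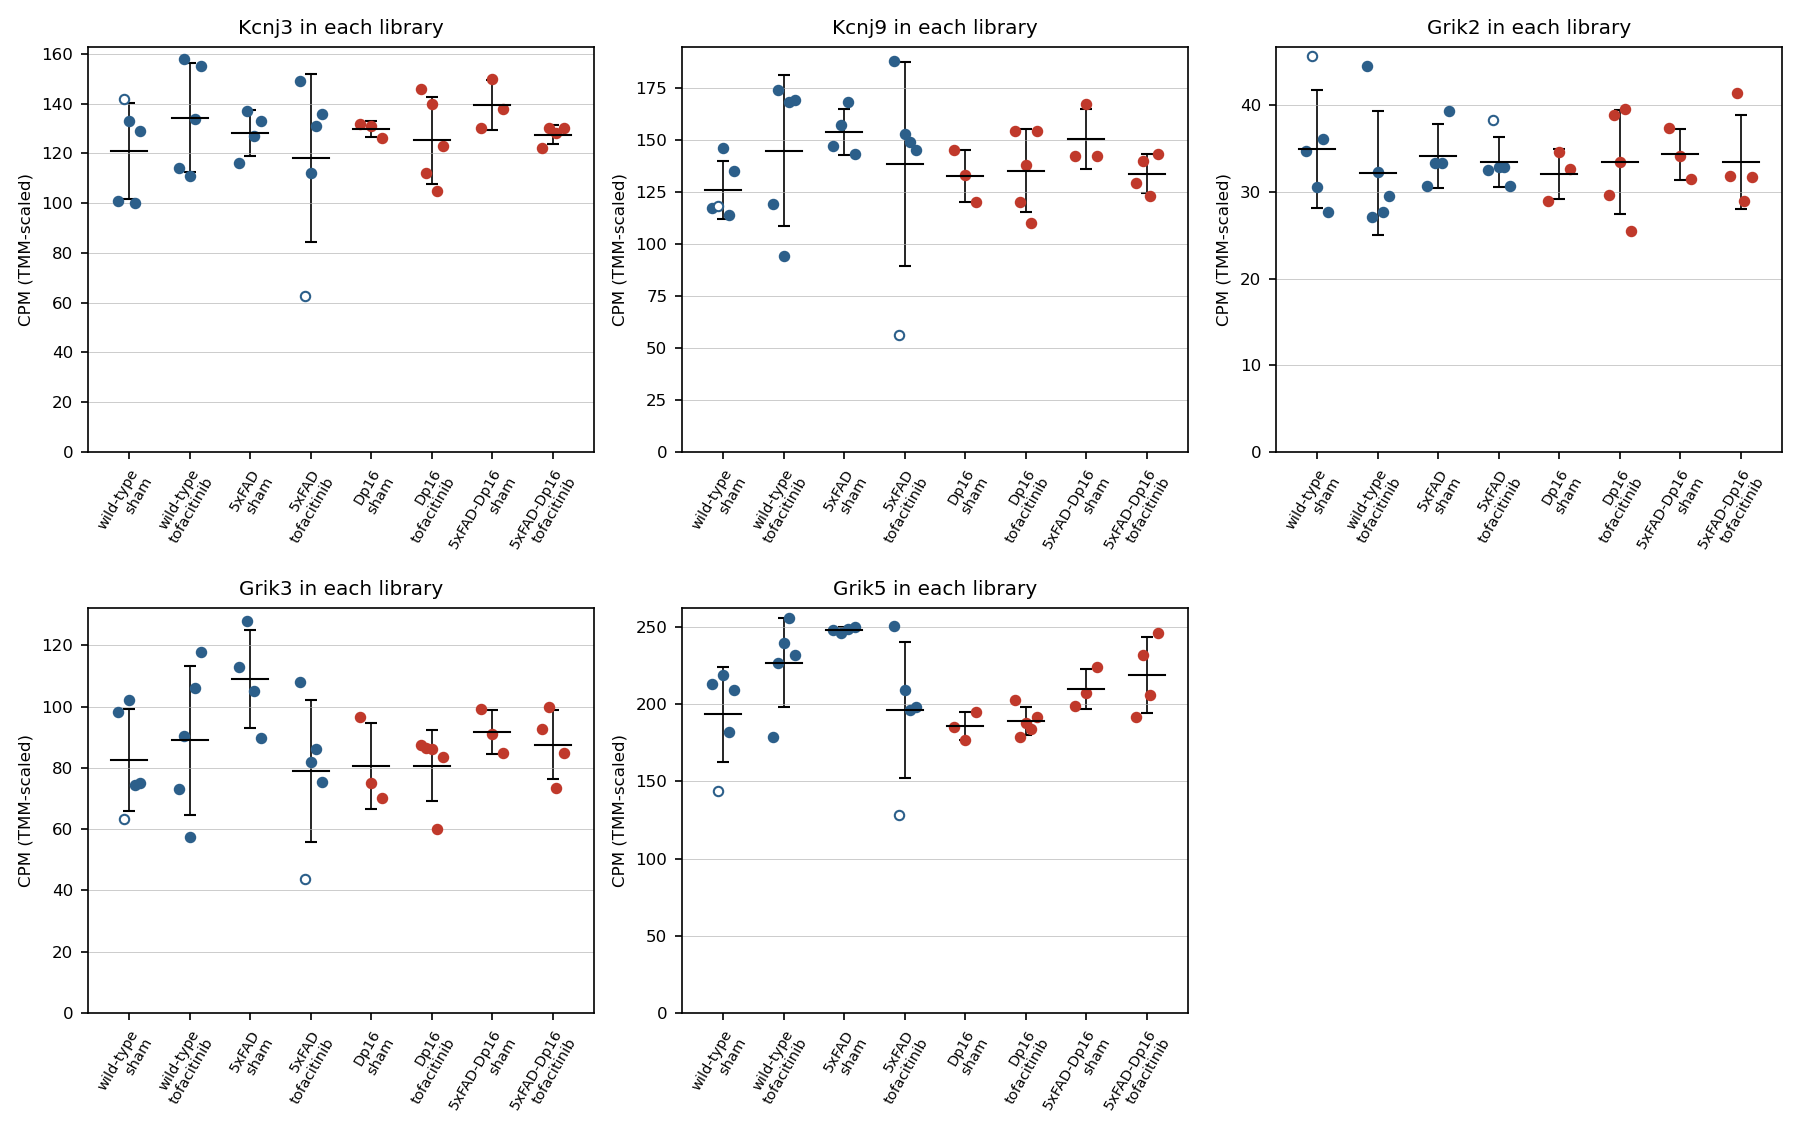
CPM of the 5 members outside the duplicated segment in each library by group, with carriers in red, non-carriers in blue, black lines for the mean ± SD, and open points for wild-type sham 2 and 5xFAD tofacitinib 2. The open point of 5xFAD tofacitinib 2 is the lowest of all libraries for Kcnj3 (62.7), Kcnj9 (56), Grik3 (43.8) and Grik5 (128).

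The make-up of the followed members of each family was also compared within libraries, where library depth and scaling cancel. Kcnj6 made up 3.87 ± 0.743% of the summed RPKM of Kcnj3, Kcnj6 and Kcnj9 in 19 non-carriers and 6.53 ± 0.894% in 15 carriers. The shift was 2.63 percentage points in sham (6 against 9 mice, two-sided exact permutation test p = 0.0004, adjusted over 4 tests 0.000533) and 2.67 under tofacitinib (9 against 10, exact permutation p = 2.17e-05, adjusted 8.66e-05). Both are the smallest p these sizes allow. These permutation tests and those for Grik1 below pooled mice over 5xFAD status and sex. The share separated carriers from non-carriers completely within each treatment, but narrowly. The edges were 4.83 against 4.7% in sham and 5.54 against 5.49% under tofacitinib. With treatments pooled, 2 of 19 non-carriers (up to 5.49%) reached the lowest carrier (4.83%). How often such shares separate for other genes is not given here. In CPM, 31.1% of the tested segment genes separated completely in sham and 19.8% under tofacitinib.

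Grik1 made up 3.41 ± 1.09% of the summed RPKM of the 4 kainate receptor members in non-carriers and 5.38 ± 0.912% in carriers. The shift was 2.6 percentage points in sham (exact permutation p = 0.0004, adjusted 0.000533) and 1.48 under tofacitinib (exact permutation p = 0.0114, adjusted 0.0114). The highest share of all, 7.52%, was in 5xFAD tofacitinib 2, a non-carrier with the lowest Grik3 RPKM of all libraries (5.4), and it was the only non-carrier to reach the lowest carrier (4.21%). These shares use the same Kcnj6 and Grik1 counts as the tests above. Kcnj6 remained a small part of the summed RPKM of Kcnj3, Kcnj6 and Kcnj9 in every library, at most 8.22%.

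**Figure D4:**
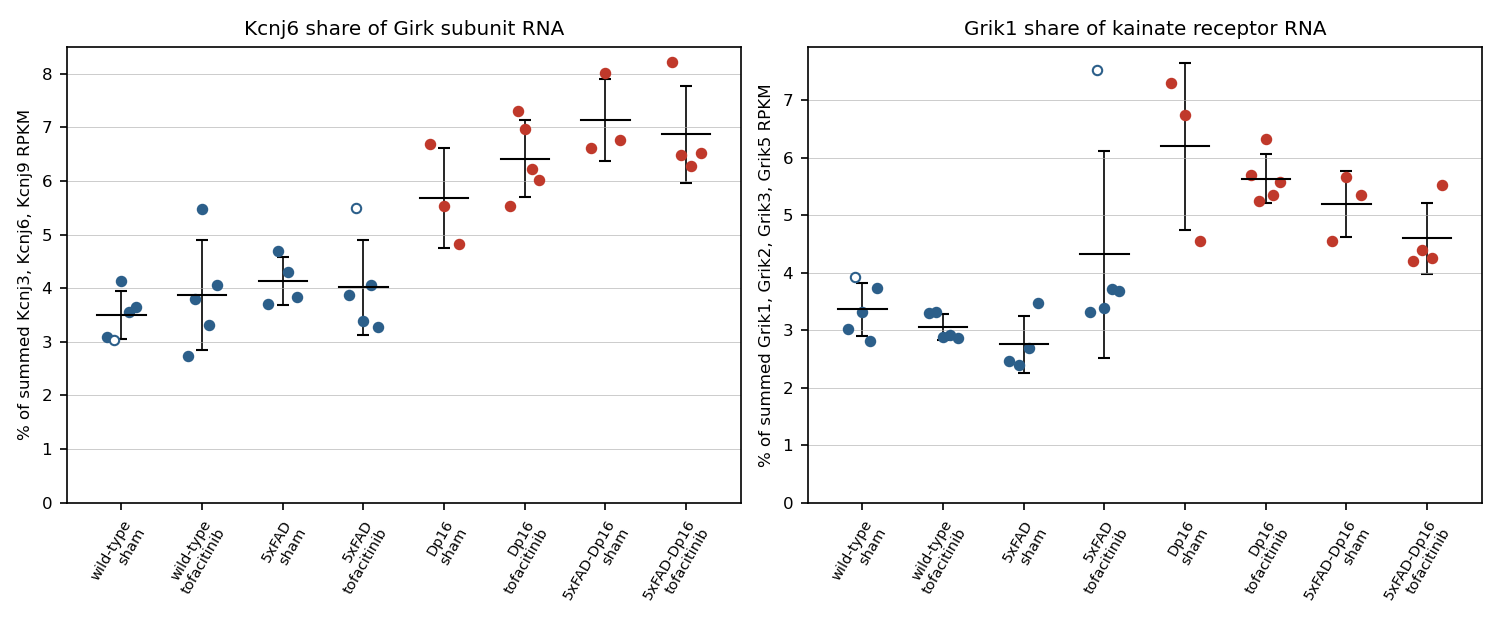
Share of Kcnj6 in the summed RPKM of 3 Girk subunit genes (left) and of Grik1 in that of 4 kainate receptor genes (right), by library and group, in percent; colours, lines and open points are as in the plot of CPM by library. Carriers average 6.53% for Kcnj6 and 5.38% for Grik1, and the open point at 7.52% is 5xFAD tofacitinib 2.

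Among the 106 tested genes of the segment, Kcnj6 ranked 9 and Grik1 29 by their averaged difference, counted from the largest. The segment median was 1.46-fold (log2 0.55, quartiles 0.45 to 0.65), and 104 of the 106 lay above 0, against a median of 0.0044 over all tested genes. The nearest tested protein-coding genes beside Kcnj6 and Kcnj15 were Ttc3 (1.45-fold), Vps26c (1.71-fold) and Dyrk1a (1.46-fold) on one side and Erg (1.02-fold), Ets2 (1.35-fold) and Psmg1 (1.41-fold) on the other. All passed except Erg, an endothelial transcription factor (adjusted p = 0.933, edgeR). Beside Grik1, Cct8 (1.48-fold), Bach1 (1.46-fold), Tiam1 (1.56-fold), Sod1 (1.42-fold) and Scaf4 (1.24-fold) passed, and Map3k7cl (1.04-fold, adjusted p = 0.958) did not. Kcnj6 was thus above each of these 12 neighbours in fold change, but it exceeded Vps26c by less than its own SE. The lower end of the 95% interval of Kcnj6 moved between 1.4 and 1.68-fold over 44 alternative edgeR fits, 34 of them with 1 library left out. It was above 1.5-fold in 35 of the 44, which share their mice. It was at 1.46-fold without both libraries that stood apart and at 1.4-fold with the summed striatal markers as a covariate. For Grik1 it lay between 1.3 and 1.45-fold.

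**Figure D5:**
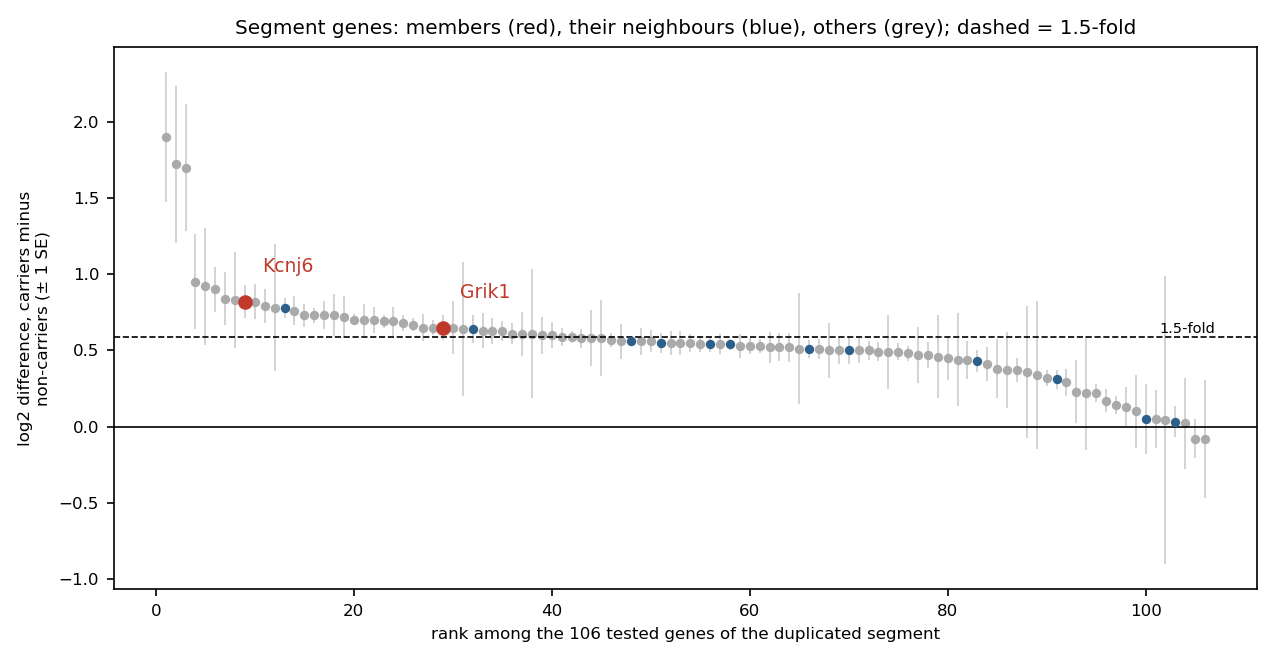
Averaged log2 difference (± 1 SE) of the 106 tested genes of the duplicated segment, ordered by size, with Kcnj6 and Grik1 in red, their 12 neighbours in blue and the other genes in grey; the dashed line is 1.5-fold. Kcnj6 (0.82) and Grik1 (0.65) lie above the segment median of 0.55, in the upper part of the order.

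All 12 striatal markers had averaged log2 differences below 0 in carriers (median -0.59), none of them called. None of the 12 was at 0. With the summed striatal level added as a covariate, an alternative chosen after the data were seen, Kcnj6 was 1.6-fold higher (1.4 to 1.84, adjusted p = 1.86e-05, edgeR) and Grik1 1.47-fold (1.3 to 1.66, adjusted p = 7.58e-05). Among 13 inhibitory neuron markers, Vip (1.4-fold, adjusted p = 0.0212) and Sst (1.14-fold, adjusted p = 0.0464) passed as higher and Slc32a1, the vesicular GABA transporter (0.851-fold, adjusted p = 0.0178), as lower. Their sum lay between 1942 and 2136 CPM in carriers and between 1502 and 2134 in non-carriers. Vip was lost without 5xFAD-Dp16 tofacitinib 3 (adjusted p = 0.053, edgeR), Sst without any 1 of 23 libraries, and Slc32a1 with the striatal covariate (adjusted p = 0.0745). The part of interneurons in the Grik1 difference was not tested. Markers of oligodendrocyte precursors summed to 141 to 202 CPM in carriers and 125 to 220 in non-carriers, with 0 of 7 called. Other cell type markers called with the duplication were all lower. They were the excitatory neuron marker Foxp2 (0.786-fold, adjusted p = 0.00711, edgeR), the oligodendrocyte marker Cnp (0.841-fold, 0.0397), the microglial marker P2ry12 (0.863-fold, 0.0397) and the endothelial marker Cdh5 (0.83-fold, 0.0491). Each was 1 called of 12, 8, 8 and 8 markers of its list, and 7 of the 8 oligodendrocyte markers lay below 0. Their part in the Kcnj6 and Grik1 differences was not tested.

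The 5xFAD transgenes changed no member by the test. In the comparison averaged over 4 matched pairs 0.42% of all genes were called and 0 of 7 members. Kcnj6 was the member with the largest difference, 1.18-fold higher with 5xFAD (95% interval 1.02 to 1.36, unadjusted p = 0.0249, adjusted p = 0.188, edgeR). Grik5 was at 1.09-fold (0.999 to 1.2, adjusted p = 0.253), Grik3 at 1.1-fold (0.956 to 1.27, adjusted p = 0.446) and Grik1 at 1.02-fold (0.909 to 1.14, adjusted p = 0.875).

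In sham mice alone, 3 members reached an unadjusted p under 0.05 in 5xFAD against wild-type, where 24.8% of all genes did and 0.017% were called. Grik5 values were 248, 246, 249 and 250 CPM in 5xFAD and 213, 144, 219, 182 and 209 in wild-type. All 4 transgenic mice were above all 5 wild-type mice, as in 4.94% of tested genes, at 1.27-fold (1.07 to 1.51, adjusted p = 0.0881, edgeR). Grik3 was at 1.33-fold (adjusted p = 0.178) and Kcnj6 at 1.37-fold (adjusted p = 0.151). Without wild-type sham 2 and 5xFAD tofacitinib 2, Grik5 was at 1.2-fold (adjusted p = 0.155), Grik3 at 1.25-fold (0.253) and Kcnj6 at 1.33-fold (0.232). All 3 were called by limma-voom with sample weights (adjusted p from 0.0136 to 0.0377) and by edgeR without a filter on low counts (0.0106 to 0.0374), and Grik5 also by edgeR without 5xFAD tofacitinib 2 (0.0456). The share of all genes called in this comparison under those settings is not given here. These calls therefore cannot be read as particular to the members. Under tofacitinib, 5xFAD against wild-type had 0 of 7 members and 0.017% of all genes called, and these 3 members lay below 1-fold. Grik5 was at 0.867-fold (0.736 to 1.02, adjusted p = 0.8, edgeR), Grik3 at 0.889-fold (0.69 to 1.15, 0.927) and Kcnj6 at 0.926-fold (0.713 to 1.2, 0.956). In carriers, 5xFAD-Dp16 against Dp16, 0 of 7 members were called in sham or under tofacitinib, where 0.00567% of all genes were called in each. Kcnj6 was at 1.41-fold there in sham (1.02 to 1.96, adjusted p = 0.696, edgeR) and 1.08-fold under tofacitinib (0.825 to 1.41, adjusted p = 0.988).

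Tofacitinib changed no member by the edgeR test on filtered genes with all libraries, in any genotype or on average. No gene of 17632 was called in the averaged comparison by edgeR or by limma-voom, 1 was called by DESeq2, and 592 (3.36%) had an unadjusted edgeR p under 0.05, none of them a member. Grik1 was at 1.01-fold (0.898 to 1.13), Kcnj6 at 0.996-fold (0.864 to 1.15) and Grik3, the member with the largest difference, at 0.93-fold (0.808 to 1.07), with adjusted p from 0.935 to 0.994 (edgeR).

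Within 5xFAD mice, Grik3 was at 0.72-fold (0.551 to 0.942, adjusted p = 0.32, edgeR) and Grik5 at 0.799-fold (0.672 to 0.949, adjusted p = 0.32) under tofacitinib. No gene was called there by edgeR or DESeq2, and 2617 genes (14.8%) had an unadjusted p under 0.05. limma-voom called 3038 genes, with Grik3 (adjusted p = 0.0186) and Grik5 (0.0103) among them, and edgeR without the low-count filter called 642, with Grik3 among them (0.00557). The lowest value of both genes in that group is that of 5xFAD tofacitinib 2. Without it and wild-type sham 2 the values were 0.8-fold for Grik3 and 0.859-fold for Grik5 (adjusted p = 0.625 for both). Without 5xFAD tofacitinib 1, Grik5 passed (adjusted p = 0.0482, edgeR). The interaction of 5xFAD and tofacitinib was 0.719-fold for Kcnj6 (0.541 to 0.957, adjusted p = 0.331) and 0.832-fold for Grik5 (0.695 to 0.997, adjusted p = 0.344). No gene was called for that interaction by edgeR or DESeq2, where 2548 (14.5%) had an unadjusted p under 0.05. limma-voom called 3771 genes, 3 members among them, of which Kcnj6 (adjusted p = 0.0124) and Grik5 (0.0174) are named here. edgeR without the low-count filter called 675. Sex, a term of the model, changed no member by the test, where 0.0624% of genes were called.

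The genes that act with Girk channels were described from lists. Of 24 receptors that open Girk channels, 23 were tested, 0 were called higher and 2 lower with the duplication, where 0.975% of all genes were called lower, with a median log2 difference of -0.039. Oprk1, the kappa opioid receptor, was at 5.3 ± 1.24 CPM in carriers and 7.97 ± 2.11 in non-carriers (0.629-fold, 0.525 to 0.752, adjusted p = 0.00168, edgeR). Grm4, a Gi-coupled metabotropic glutamate receptor, was at 24.1 ± 4.33 against 28.6 ± 4.45 CPM (0.803-fold, adjusted p = 0.0326). With the striatal level as a covariate, Oprk1 still passed (adjusted p = 0.0188) and Grm4 did not (0.0648). Grm4 was also lost when any of 10 libraries was left out (wild-type sham 1, 5xFAD sham 1 or 2, Dp16 sham 2 or 3, Dp16 tofacitinib 4, 5xFAD-Dp16 sham 1, 2 or 4, or 5xFAD-Dp16 tofacitinib 3), with adjusted p from 0.0504 to 0.0824.

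No member of the other Girk lists was called. Of 17 G protein subunits of the Gi and Go class, 8 lay above 0, and the 2 with the smallest p were Gnai1 at 1.09-fold (adjusted p = 0.102, edgeR) and Gng13 at 1.28-fold (0.195). Among 18 regulators of Girk channels, Rgs9 was at 0.652-fold (0.243) and Rgs8 at 0.893-fold (0.257). Both encode regulators of G protein signalling, and neither passed. Of the other inward rectifiers, 10 of 11 were tested, and Kcnj16 (0.827-fold, 0.081) and Kcnj10 (0.878-fold, 0.192), a pair that forms the glial channel, did not pass.

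Around the kainate receptors, 13 of 14 listed partners were tested and 0 called, with a median log2 difference of 0.01. Neto1, an auxiliary subunit, was at 0.919-fold (adjusted p = 0.332, edgeR) and C1ql3, a secreted synaptic protein, at 1.08-fold (0.505). Of 13 AMPA, NMDA and delta receptor subunits, 1 was called, the NMDA receptor subunit Grin2c, at 49.4 ± 6.24 CPM in carriers and 58.6 ± 6.4 in non-carriers (0.849-fold, 0.79 to 0.912, adjusted p = 0.00691). Among 7 metabotropic glutamate receptors only Grm4 passed. None of 13 tested GABA-A receptor subunits and none of 3 RNA editing enzymes passed with the duplication. With 5xFAD or tofacitinib, averaged, 0 genes of all 9 lists were called.

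Beyond the groups, members were compared by how they varied among mice, using log2 CPM after removal of group and sex over 34 libraries. These coefficients are descriptions, since all genes share the libraries and their tissue composition. Kcnj3 and Kcnj9 varied together (Pearson r = 0.88, Spearman rho = 0.75, r = 0.73 without the 2 libraries farthest from the Kcnj3 median). Kcnj6 followed Kcnj3 (r = 0.65, rho = 0.63) and Kcnj9 (r = 0.63, rho = 0.69) less closely. Grik3 and Grik5 gave r = 0.72 (rho = 0.56), and Grik3 also followed Kcnj9 (r = 0.84, rho = 0.74). Grik1 followed no other member closely, with Pearson r between -0.24 and 0.26 over all libraries, and up to 0.38, with Kcnj9, without the 2 libraries farthest from the median. By rank its coefficients were higher for some members, from rho = -0.26 with Grik2 to 0.37 with Kcnj3 and 0.45 with Grik5. Grik2 ran opposite to all 6 others, from r = -0.24 with Grik1 to r = -0.52 with Kcnj6.

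The genes most like each member by the same measure came from outside the segment. They were Mnt, Dnajc6 and 2900026A02Rik for Kcnj6 (each r = 0.87), and Tmem132d (0.93), Kalrn (0.93) and Car10 (0.92) for Kcnj3. For Kcnj9 they included Osbp2 (0.98) and Mef2c (0.97). For Grik1 they were Tspan33 (0.81), Sdc3 (0.76) and Timp2 (0.74), and for Grik2 Zdhhc16 (0.88), Snx10 (0.80) and Mctp1 (0.80). Grik3 was most like Arhgef2, Atp2a2 and Cobl (each 0.93), and Grik5 most like Arf3 (0.95), Prrc2a (0.92) and Vamp2 (0.91). With the 2 libraries farthest from each member's median left out, the coefficients of the genes named here lay between 0.70 and 0.95.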

How the data were processed

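The authors deposited whole-number counts per gene and mouse, which were tested here, and RPKM values, which the authors scaled by gene length and by each library's total. RPKM was recomputed from the counts, with each gene's length taken from its own deposited RPKM. It differed from the deposited values by at most 7.68e-14 in relative size. This checks the scaling by library total and cannot check the gene lengths. The deposited RPKM served for levels between genes. Strand-specific poly-A libraries were made, per the labels' protocols, and the submitters' processing notes name HISAT2 2.1.0, SAMtools 1.5 and HTSeq 0.6.1 on GRCm38; the strand setting of the counting is not given in the sources used here. GENCODE M21 placed 55144 of 55385 genes, and all 8 members had the same identifier version in it.

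The test was the quasi-likelihood F test of edgeR 4.0.16 (R 4.3.3), on the 17632 genes that filterByExpr kept. Every library entered a single TMM-normalised model, whose terms were the 8 groups and sex. The 21 comparisons were two-sided, each adjusted over all genes, with a threshold of 0.05. SE is the log2 difference over the square root of F, and 95% intervals are not adjusted. The averaged duplication comparison was also run on counts simulated from the levels and spread of these data, for 17632 genes. Its outcome is not given here. Alternatives used DESeq2 1.42.0, limma 3.58.1 and sva 3.50.0.

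The members, the lists and the tests were chosen with earlier results of these data known. Named beside the members were the 3 nearest tested protein-coding genes on each side, up to 4 called genes of each list or else the 2 with the smallest p, and the 3 genes most like each member. One of the genes most like Kcnj9 is not reported here. The labels give no sequencing batch. The series description counts 6 5xFAD tofacitinib and 4 5xFAD-Dp16 sham mice, of which 5 and 3 were analysed here.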

Additional observations from a re-analysis of the deposited data

Results flagged for a closer look

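Of 47 sets of a member in a group of 4 or 5 mice, 4 held a mouse far from the rest by Dixon's test at 95%, which chance alone gives in about 1 of 20 sets. Kcnj15 was at 0.534 CPM in wild-type tofacitinib 1, where the next mouse of the group had 0.122. It was at 1.02 CPM in Dp16 tofacitinib 2, where the next had 0.0586. These are the libraries with 10 and 17 Kcnj15 counts, and they ranked 1 and 9 of 34 for summed olfactory and septal markers. Wild-type tofacitinib 1 also had the highest summed striatal markers of the tofacitinib mice (2901 CPM), and Dp16 tofacitinib 2 the highest of the carriers (2107 CPM). A link between these markers and Kcnj15 was not tested. Grik2 was at 38.3 CPM in 5xFAD tofacitinib 2, where the next mouse had 32.9, while that library was the lowest of all in CPM of Kcnj3, Kcnj9, Grik3 and Grik5. Grik3 was at 60 CPM in Dp16 tofacitinib 4, below the next lowest mouse of its group at 83.4. No interaction between a pair of duplication, 5xFAD and tofacitinib was called for any member by edgeR on filtered genes with all libraries. An interaction of all of them together was not tested.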

How the results depend on the processing

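In the averaged duplication comparison, 2 members were called under all 12 other settings and with each of the 34 libraries left out. Over those settings Kcnj6 lay between 0.68 and 0.88 on the log2 scale and Grik1 between 0.56 and 0.67, both lowest with the striatal covariate, which was chosen after the data were seen. Over all genes, the 378 called there became 672 with no low-count filter, 1760 with limma-voom, 1745 with 2 surrogate variables, 669 without both libraries that stood apart, 805 with the length trend removed, 835 with the striatal covariate and 206 with the replicate block. The 74 called for 5xFAD, averaged, became 587 with DESeq2, 589 with limma-voom, 1358 with no filter, 358 with the length trend removed, 19 with surrogate variables and 17 with the block. Calls in single pairs of groups changed with the setting, and the cause was not tested.

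Dp16 against wild-type in sham had 2 members called with DESeq2, limma-voom, no low-count filter, 2 surrogate variables or the length trend removed, 0 with only the groups compared, and 0 to 1 with a library left out. 5xFAD-Dp16 against 5xFAD in sham had 1 with DESeq2 or the length trend removed, and 2 with limma-voom, no filter or surrogate variables. Dp16 against wild-type under tofacitinib had 2 with limma-voom, no filter, surrogate variables, the length trend removed or the striatal covariate, 0 with only the groups compared, and 0 to 1 with a library left out. 5xFAD-Dp16 against 5xFAD under tofacitinib had 0 with only the groups compared or without both libraries that stood apart, and 0 to 1 with a library left out. Both lesions in sham had 1 with surrogate variables, only the groups compared, without both libraries or with the striatal covariate, and 1 to 2 with a library left out. Both lesions under tofacitinib had 2 with DESeq2 or surrogate variables, 1 with limma-voom, no filter, a mean of at least 1 CPM, without both libraries, the length trend removed or the striatal covariate, and 0 to 1 with a library left out. 5xFAD in sham had 3 with limma-voom or no filter and 0 to 1 with a library left out, and 5xFAD averaged had 1 with no filter. Tofacitinib in 5xFAD had 2 with limma-voom, 1 with no filter and 0 to 1 with a library left out. The interaction of 5xFAD and tofacitinib had 3 with limma-voom. For the single pairs other than tofacitinib in 5xFAD, and for both lesions, the share of all genes called under these settings is not given here. Member counts for them show only whether the calls depended on the setting.

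Small log2 values that did not pass changed sign. With the duplication these were Kcnj3 with the striatal covariate (-0.028), Kcnj9 with surrogate variables (0.066), Grik2 with the striatal covariate (0.071), Erg without a sex term (-0.0076) or with that covariate (-0.057), and Map3k7cl with limma-voom (-0.017) or the length trend removed (-0.023). With 5xFAD, Grik1 turned with limma-voom (-0.034), surrogate variables (-0.12), without both libraries (-0.0066) and with the length trend removed (-0.011). With tofacitinib, Kcnj6 turned with limma-voom (0.052), surrogate variables (0.075), without both libraries (0.015) and the length trend removed (0.014), and Grik1 without both libraries (-0.025) and with the striatal covariate (-0.0099). With a library left out, Kcnj9 ranged from -0.09 to 0.045, Erg from -0.012 to 0.12 and Map3k7cl from -0.057 to 0.17 for the duplication. In the same way Grik1 ranged from -0.022 to 0.065 for 5xFAD and from -0.035 to 0.046 for tofacitinib, and Kcnj6 from -0.045 to 0.042 for tofacitinib.

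Replicate numbers did not pair the mice: residuals of same-numbered mice correlated at -0.04 on average over 98 pairs of different groups, and 2 of 34 libraries were closest to one with their own number. With the replicate block, members called fell to 0 for Dp16 against wild-type and for 5xFAD-Dp16 against 5xFAD under tofacitinib and to 1 for both lesions in sham. Vip (adjusted p = 0.055, edgeR), Slc32a1 (0.0535), Sst (0.121) and Grm4 (0.0906) were lost for the duplication. Sst was also lost with no filter (0.0512), without a sex term (0.0639), without both libraries (0.0565) and with the length trend removed (log2 0.087, adjusted p = 0.404), and Grm4 without a sex term (0.0955). In that block Kcnj9 was at 0.0028 for the duplication and Grik1 at -0.034 for tofacitinib, both turned in sign. The low counts of Kcnj15 and groups of 3 to 5 mice limit what single pairs could show.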
